A study of Mus musculus with 19 samples.

Results

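The transcription factors Snai1, Snai2, Twist1, Twist2, Zeb1 and Zeb2 and the classical cadherins Cdh1 (E-cadherin) and Cdh2 (N-cadherin) were followed in bulk RNA from mouse hepatocytes. They were taken by gene symbol, with earlier results of these data known, and make up 8 of the 35274 genes in the deposited count tables. All 8 passed the low-count filter that left 16387 genes for testing. Every animal carried the alleles OPN-CreERT2 and Rosa26R-mT/mG. OPN is osteopontin, whose promoter drives a tamoxifen-inducible Cre recombinase, and the reporter changes a cell and its descendants from tdTomato (red) to green fluorescence once Cre has acted. CTL samples were native hepatocytes from control, healthy livers. RED samples were native, tdTomato-positive hepatocytes from livers with chronic injury. GREEN samples came from livers with chronic injury too and are labelled hepatocytes derived from the DR, an abbreviation that the labels leave unexplained. The labels give neither the kind of injury nor the age or sex of the animals, and every cell in which the osteopontin promoter is active when tamoxifen is given can be marked.

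Epithelial-mesenchymal transition (EMT) is the programme by which epithelial cells lose their junctions and polarity and take on properties of mesenchymal cells. Factors of the Snail, Twist and Zeb families bind E-box sequences, and the Snail and Zeb factors are known as direct repressors of the E-cadherin gene. Hepatocytes are unusual among epithelial cells in holding both E-cadherin and N-cadherin at their junctions. In liver the same factors are also made by cells that are not epithelial: Zeb2 by macrophages, endothelial cells and stellate cells, and Twist factors and Snai1 by fibroblast-like cells.

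Each population had 5 samples. Experiment 1 libraries were made with a stranded poly(A) kit and experiment 2 libraries after removal of ribosomal RNA. The 1 library per sample that was compared came from experiment 1 for 2 samples and from experiment 2 for 3 samples of each population. CTL 5, RED 2, RED 3 and RED 4 had a second library, of experiment 1, that was left out of these main comparisons. Fits of experiment 1 alone used all 10 of its libraries, the second ones included. These 4 samples thus enter both experiments when each is fitted alone, so the 2 results do not come from separate samples. Over all 19 libraries the total estimated count was 22442606 to 34216824 in experiment 1 and 38061859 to 44177627 in experiment 2. The series' design text calls the samples biological replicates, and no label names an animal. GREEN 3 of experiment 2 and GREEN 4 of experiment 1 carry the same library code, and whether they came from 1 animal is not stated. GREEN 3, GREEN 4 and GREEN 5 stood apart with the highest scaling factors (1.35, 1.49 and 1.43, against 0.624 to 1.16 in the other 12 libraries). Summed hepatocyte markers were the most abundant of the marker lists in every sample, at 34525.6 to 173956.0 CPM (the usual per-library unit, a count relative to the library size, here after scaling by the trimmed mean of M values, TMM). Markers of other liver cells were present as well, and their levels are given beside the results.

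The promoters of the 4 factors that were higher in both injured populations than in CTL are shown because these genes were higher together. RefSeq (GRCm38.p6) listed a promoter for these 4 of the 8 genes; none was listed for Snai2, Zeb1, Cdh1 or Cdh2. Each sequence holds the 250 bases ahead of the transcription start, 5′ to 3′ on the strand of the gene: Snai1 at chr2:167537945-167538194 (plus strand), Twist1 at chr12:33957421-33957670 (plus), Twist2 at chr1:91801211-91801460 (plus) and Zeb2 at chr2:45117443-45117692 (minus). Capitals mark an E-box, CAGGTG or its reverse complement CACCTG, or the palindrome CAGCTG.
Snai1: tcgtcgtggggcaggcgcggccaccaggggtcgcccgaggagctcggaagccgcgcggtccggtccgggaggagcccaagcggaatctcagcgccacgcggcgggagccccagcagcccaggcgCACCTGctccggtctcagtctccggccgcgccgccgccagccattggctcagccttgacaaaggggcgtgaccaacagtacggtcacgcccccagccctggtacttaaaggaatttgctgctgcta
Twist1: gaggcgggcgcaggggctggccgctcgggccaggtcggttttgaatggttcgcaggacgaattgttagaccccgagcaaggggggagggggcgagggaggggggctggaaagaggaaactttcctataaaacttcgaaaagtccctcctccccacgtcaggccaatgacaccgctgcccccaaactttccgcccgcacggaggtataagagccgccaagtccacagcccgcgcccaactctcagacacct
Twist2: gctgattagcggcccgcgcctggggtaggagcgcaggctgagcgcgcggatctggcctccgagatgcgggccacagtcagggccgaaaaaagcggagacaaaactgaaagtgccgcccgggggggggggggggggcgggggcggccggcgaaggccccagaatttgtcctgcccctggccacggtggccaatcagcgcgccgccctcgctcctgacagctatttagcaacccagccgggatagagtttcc
Zeb2: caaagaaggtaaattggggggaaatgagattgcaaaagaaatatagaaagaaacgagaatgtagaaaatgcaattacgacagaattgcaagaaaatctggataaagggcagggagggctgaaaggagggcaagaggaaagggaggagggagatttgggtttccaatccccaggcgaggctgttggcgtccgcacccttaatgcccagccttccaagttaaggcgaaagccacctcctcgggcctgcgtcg

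The Snai1 promoter held a single E-box, CACCTG, which starts 126 bases ahead of the transcription start. Those of Twist1, Twist2 and Zeb2 held none of these letters within the window. Among all 32817 listed promoters, 17.2% held CAGGTG or CACCTG and 13.0% held CAGCTG within the same length. A match describes the letters and is not evidence of binding.

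Per length of transcript, the cadherins led in all 3 populations and the Twist factors came last. In CTL the mean level per kilobase of the longest coding transcript was 32.0 CPM per kb for Cdh1 and 29.5 for Cdh2, followed by 3.58 for Zeb1 and 2.25 for Snai2. Zeb2 stood at 0.442, Snai1 at 0.189, Twist1 at 0.0241 and Twist2 at 0.00468 CPM per kb. Cdh1 and Cdh2 did not separate there (Cdh1 above Cdh2 in 3 of 5 samples), nor did Zeb2 and Snai1 or Twist1 and Twist2, whose ranges overlapped. In RED the order was the same but for Zeb2 (3.99 CPM per kb), which stood above Snai2 (3.14) and below Zeb1 (4.98), with overlapping ranges between each of these neighbours. In GREEN Cdh1 (72.4 CPM per kb) was above Cdh2 (18.1) in every sample without overlap, and Zeb2 (3.71) and Zeb1 (3.64) could not be ordered. Snai1 (1.95), Twist1 (0.514) and Twist2 (0.0933) closed the order in GREEN and did not overlap one another, whereas Snai2 (2.66) and Snai1 overlapped.

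**Figure D1:**
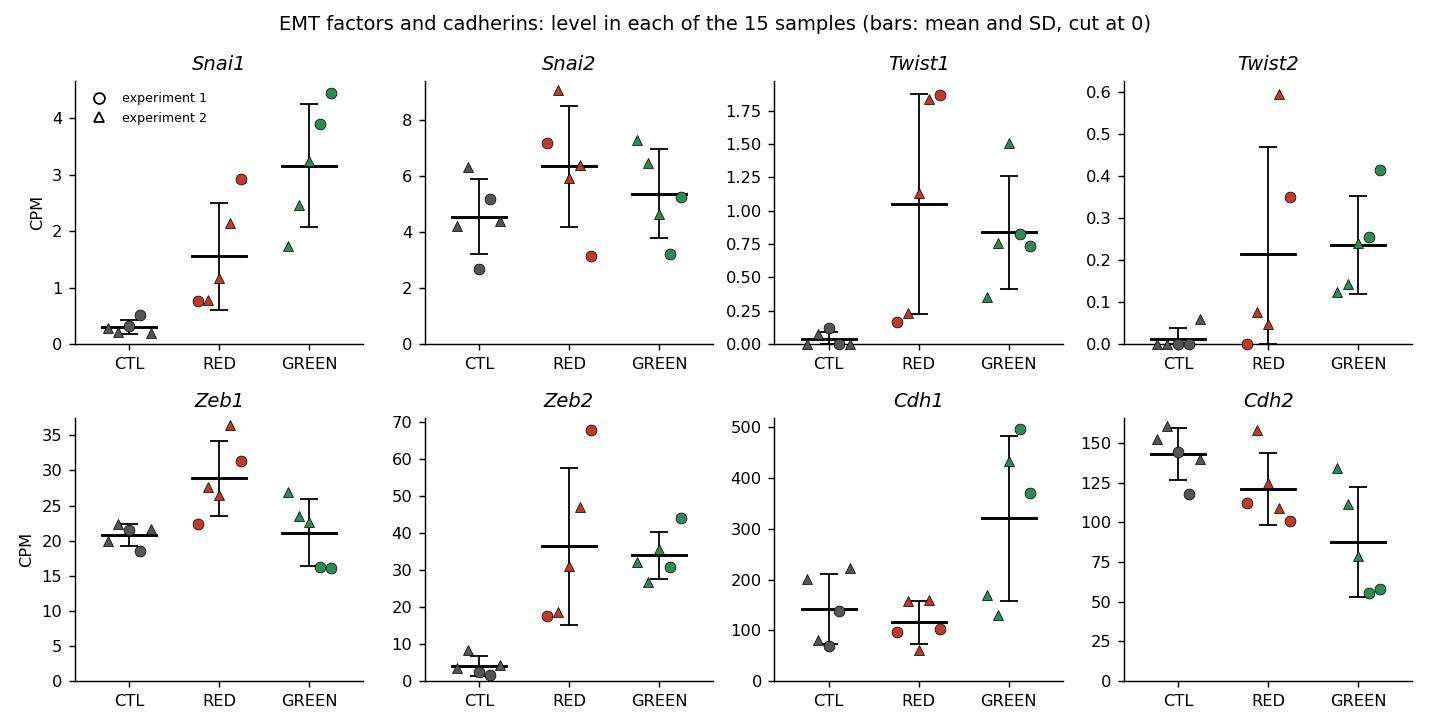
Level of each gene in the 15 samples on linear axes in CPM that start at 0. Points are samples (circles experiment 1, triangles experiment 2), horizontal bars are group means and vertical bars 1 SD. Snai1, Twist1 and Zeb2 in RED and GREEN lie above all CTL samples, and GREEN splits into low and high samples for Cdh1.

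RED versus CTL compared native hepatocytes of injured with those of healthy liver. Of the 8 genes, 5 were higher in RED (Snai1, Twist1, Twist2, Zeb1 and Zeb2) and 0 were lower by the quasi-likelihood F test of edgeR at an adjusted p under 0.05. Of all 16387 genes, 16.2% passed by the same test, 14.2% higher and 1.99% lower. In 4 of the 5 the RED and CTL samples did not overlap; 10.6% of all genes had RED above CTL without overlap and 1.42% had it below. The median log2 fold change of the 8 genes was 1.43, and that of all genes tested 0.0493. GREEN versus CTL compared hepatocytes labelled DR-derived with healthy ones. It again gave 5 higher genes (Snai1, Twist1, Twist2, Zeb2 and Cdh1) and 1 lower (Cdh2), where 48.1% of all genes passed, 29.5% higher and 18.6% lower. The 4 factors among them lay above CTL without overlap, which 21.0% of all genes did (9.59% lay below CTL in the same way), and the median over the 8 genes was 2.14 against 0.11 over all genes. For Twist1 in RED and Twist2 in GREEN the separation is of measured values only. A count of 0 in CTL 4 allows a level above the lowest of these samples. Both comparisons use the same CTL samples. GREEN versus RED, between 2 populations of injured liver, gave 1 higher gene (Cdh1) and 1 lower (Zeb1), where 12.9% of all genes passed, 9.68% higher and 3.22% lower. None of the 8 genes separated GREEN from RED without overlap, which 6.66% of all genes did with GREEN above and 2.25% with GREEN below, and their median was -0.18 against -0.021 for all genes. Scaled by library totals, the median of all genes moved to 0.33 in RED versus CTL, 0.419 in GREEN versus RED and 0.832 in GREEN versus CTL. The split of higher and lower genes then became 4289 and 40 in GREEN versus RED, from 1586 and 528, and 10077 and 467 in GREEN versus CTL, from 4839 and 3051.

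**Figure D2:**
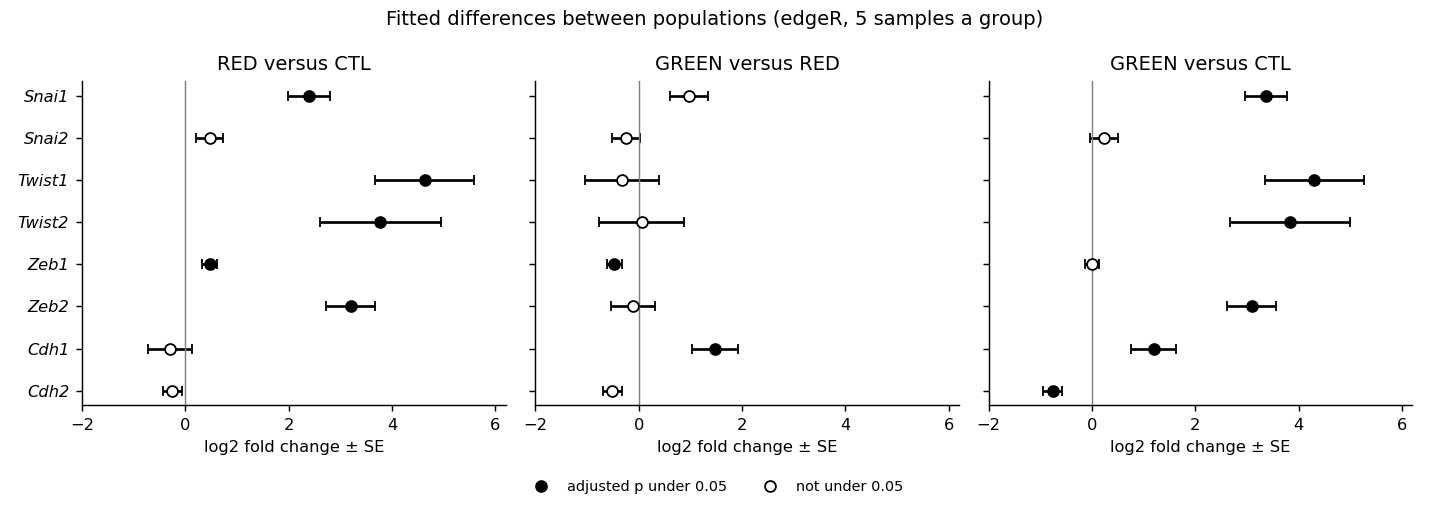
Fitted log2 fold change of each gene in the 3 comparisons. Points are estimates with 1 standard error over 5 samples a group, filled where the adjusted p was under 0.05. The changes of Snai1, Twist1, Twist2 and Zeb2 against CTL lie between 2.39 and 4.63, and in GREEN versus RED the filled points are Cdh1 at 1.48 and Zeb1 at -0.47.

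Snai1 (ENSMUSG00000042821.7, GRCm38 chromosome 2, 167538195 to 167542814), a zinc finger repressor that is often the earliest of these factors to respond in EMT, was at 0.286, 0.209, 0.315, 0.513 and 0.207 CPM in CTL 1 to 5. In RED 1 to 5 it was at 0.764, 0.779, 1.17, 2.15 and 2.92 CPM. In GREEN 1 to 5 it was at 1.74, 2.47, 3.25, 3.9 and 4.45 CPM. Every injured sample was above every CTL sample, and RED and GREEN overlapped, with 3 of 5 GREEN samples above all RED samples. The log2 fold change was 2.39 in RED versus CTL (SE 0.41, edgeR adjusted p = 0.0011) and 3.37 in GREEN versus CTL (SE 0.41, adjusted p = 4.4e-05). GREEN versus RED gave 0.98 (SE 0.37, 95% interval 0.26 to 1.71), which missed the threshold with an adjusted p of 0.088. Within experiment 1 alone RED versus CTL gave 2.26 (adjusted p = 0.069) and within experiment 2 alone 2.53 (adjusted p = 0.020). GREEN versus CTL gave 3.81 and 3.39 in experiment 1 and experiment 2, and GREEN versus RED 1.55 and 0.86, neither of the last past the threshold. Scaling by library totals put GREEN versus RED past the threshold at 1.41 (adjusted p = 0.026), and so did limma-voom at 1.14 (adjusted p = 0.038).

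Snai2 (ENSMUSG00000022676.6, chromosome 16, 14705852 to 14709385), also called Slug, is the close relative of Snai1. It was at 4.21, 6.30, 2.68, 5.19 and 4.40 CPM in CTL 1 to 5 and at 7.17, 9.06, 5.94, 6.38 and 3.15 CPM in RED 1 to 5. In GREEN 1 to 5 it was at 7.26, 6.47, 4.65, 3.23 and 5.23 CPM. The 3 populations overlapped throughout. The log2 fold change was 0.47 in RED versus CTL (95% interval -0.0597 to 1.00, adjusted p = 0.30), -0.24 in GREEN versus RED (-0.77 to 0.28, adjusted p = 0.57) and 0.23 in GREEN versus CTL (-0.30 to 0.76, adjusted p = 0.52). These intervals are narrow beside the Snai1 changes: none reaches the 1.59 that is the lower bound of Snai1 in RED versus CTL. With libraries scaled by their totals, GREEN versus CTL passed the threshold at 0.95 (adjusted p = 0.0053), where the median of all genes was itself 0.832.

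Twist1 (ENSMUSG00000035799.6, chromosome 12, 33957671 to 33959829), a basic helix-loop-helix factor of mesoderm and of mesenchymal cells, was close to the limit of detection in CTL. CTL 2 and CTL 3 had 0.0784 and 0.118 CPM and the other 3 CTL libraries had a count of 0, which at 3 counts allows up to 0.0780, 0.171 and 0.0885 CPM in CTL 1, CTL 4 and CTL 5. In RED 1 to 5 it was at 0.170, 0.234, 1.13, 1.84 and 1.87 CPM, and in GREEN 1 to 5 at 0.352, 0.755, 1.51, 0.828 and 0.738 CPM. RED fell into low samples (RED 1 and RED 2) and high ones, the GREEN samples lay inside the RED range, and all 10 were measured above every CTL sample. RED 1 did not exceed the 0.171 CPM that the count of 0 in CTL 4 allows. The summed counts were 6 in CTL, 185 in RED and 210 in GREEN, a ratio per library size of 27.6 for RED to CTL (95% counting interval 12.5 to 76.3) and 21.9 for GREEN to CTL (9.89 to 60.3). The fitted log2 fold change was 4.63 in RED versus CTL (SE 0.96, adjusted p = 0.0038) and 4.30 in GREEN versus CTL (SE 0.96, adjusted p = 0.0024). GREEN versus RED gave -0.32 (95% interval -1.72 to 1.08, adjusted p = 0.80). Both calls against CTL were also made within experiment 1 (4.32 and 4.04) and within experiment 2 (5.17 and 4.88). The 2 experiments share CTL 5, RED 2, RED 3 and RED 4. With GREEN 3, GREEN 4 and GREEN 5 left out, an alternative added after the values were seen, GREEN versus CTL was 3.76 with an adjusted p of 0.074.

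Twist2 (ENSMUSG00000007805.4, chromosome 1, 91801461 to 91848028), the relative of Twist1 known from dermal and fibroblast-like cells, was the rarest of the 8 genes. A single CTL sample had any count: CTL 5 with 0.0590 CPM from 2 counts, while a count of 0 in the other 4 allows up to 0.0780 to 0.171 CPM. In RED 1 to 5 it was at 0, 0.0779, 0.0479, 0.597 and 0.350 CPM, and in GREEN 1 to 5 at 0.124, 0.143, 0.240, 0.256 and 0.415 CPM. GREEN was measured above every CTL sample, whereas RED overlapped with CTL and owed most of its counts to RED 4 and RED 5. GREEN 1 and GREEN 2 did not exceed the 0.171 CPM that the count of 0 in CTL 4 allows. Summed counts were 39 in RED and 57 in GREEN against the 2 in CTL, a ratio per library size of 17.5 (95% counting interval 4.52 to 149.0) for RED to CTL and 17.8 (4.71 to 151.0) for GREEN to CTL. The fit called both RED versus CTL (log2 fold change 3.77, SE 1.17, adjusted p = 0.040) and GREEN versus CTL (3.83, SE 1.16, adjusted p = 0.015), and fitted values at such counts depend on the prior count. GREEN versus RED gave 0.0628 (95% interval -1.54 to 1.67). The RED call was the less secure: it was lost when any of CTL 1, CTL 2, CTL 3, CTL 4, RED 4, RED 5, GREEN 2, GREEN 3 or GREEN 4 was left out (adjusted p = 0.051 to 0.17), and by limma-voom (adjusted p = 0.085). The GREEN call was lost when GREEN 3 to GREEN 5 were left out together (2.84, adjusted p = 0.26). The second library of RED 4, made in experiment 1, held 1 count where the library of experiment 2 held 25.

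Zeb1 (ENSMUSG00000024238.14, chromosome 18, 5591860 to 5775467), a zinc finger and homeodomain repressor, had the highest mean CPM per kb of the 6 factors in CTL and in RED. It was at 19.9, 22.4, 21.5, 18.5 and 21.7 CPM in CTL 1 to 5 and at 22.4, 27.6, 26.5, 36.5 and 31.4 CPM in RED 1 to 5. In GREEN 1 to 5 it was at 27.0, 23.5, 22.7, 16.2 and 16.1 CPM. RED lay above CTL without overlap, by a small margin at RED 1, and GREEN lay on both sides of the CTL range. GREEN 1, GREEN 2 and GREEN 3, the samples of experiment 2, were above all CTL samples. GREEN 4 and GREEN 5, the samples of experiment 1, were below all CTL samples. RED versus CTL gave a log2 fold change of 0.47 (SE 0.14, edgeR adjusted p = 0.032) and GREEN versus RED -0.47 (SE 0.14, adjusted p = 0.041). GREEN versus CTL gave -0.0004 (95% interval -0.26 to 0.26). Both calls were close to the threshold. RED versus CTL lost it without CTL 1, CTL 2, CTL 3, CTL 4, CTL 5, RED 1, RED 4 or RED 5 (0.35 to 0.47, adjusted p = 0.057 to 0.19), and GREEN versus RED without CTL 5, RED 1, RED 4, RED 5, GREEN 3, GREEN 4 or GREEN 5 (-0.58 to -0.38, adjusted p = 0.051 to 0.12). With libraries scaled by their totals GREEN versus RED was -0.056 (adjusted p = 0.83), RED versus CTL 0.76 (adjusted p = 0.0039) and GREEN versus CTL 0.71 (adjusted p = 0.0018), so the place of GREEN between CTL and RED depended on the scaling. The annotation places the pseudogene Gm16147 on the opposite strand within Zeb1, which held 174.0 counts over all 19 libraries, and the sources used here do not state whether the counting used strand. Twist2, Zeb2 and Cdh2 also have annotated genes on their opposite strand.

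Zeb2 (ENSMUSG00000026872.17, chromosome 2, 44983632 to 45117395), the second Zeb repressor, was at 3.40, 8.44, 2.36, 1.54 and 4.43 CPM in CTL 1 to 5. In RED 1 to 5 it was at 17.5, 18.6, 31.0, 47.1 and 67.8 CPM, and in GREEN 1 to 5 at 32.2, 26.8, 35.6, 30.8 and 43.9 CPM. Every injured sample was above every CTL sample. RED spread over a wide range, and all GREEN samples lay inside it. The log2 fold change was 3.20 in RED versus CTL (SE 0.47, edgeR adjusted p = 0.00056) and 3.09 in GREEN versus CTL (SE 0.47, adjusted p = 0.00019), with -0.11 in GREEN versus RED (95% interval -0.94 to 0.73, adjusted p = 0.89). RED versus CTL was called within experiment 1 (3.89) and within experiment 2 (2.57), as was GREEN versus CTL (4.13 and 2.54). In CPM per kb, Zeb2 lay below its relative Zeb1 without overlap in CTL (0.442 against 3.58), and the 2 genes overlapped in RED (3.99 against 4.98) and in GREEN (3.71 against 3.64).

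Most markers of stellate, endothelial and macrophage cells were higher in RED and in GREEN than in CTL, as were Snai1, Twist1, Twist2 and Zeb2. Zeb1 was not called in GREEN versus CTL, and Snai2 in no comparison. In a bulk sample, more cells of a type and more RNA per cell cannot be told apart. The 15 stellate cell and fibroblast markers summed to 43.2 to 96.0 CPM in CTL, 359.8 to 2085.6 in RED and 969.5 to 2984.0 in GREEN, and all 15 were higher in RED and in GREEN than in CTL. The 15 endothelial markers summed to 60.4 to 173.8 CPM in CTL, 489.4 to 2520.5 in RED and 420.6 to 958.9 in GREEN, again all 15 higher against CTL in both. The 15 Kupffer cell and macrophage markers summed to 43.6 to 119.0 CPM in CTL, 128.6 to 1710.8 in RED and 154.9 to 588.7 in GREEN, with 14 higher in RED and 12 in GREEN. Of the 11 neutrophil markers 7 could be tested and 5 were higher in RED and in GREEN (0.472 to 3.37 CPM summed in CTL, 6.61 to 29.2 in RED and 7.57 to 48.6 in GREEN). Of the 15 lymphocyte markers 7 could be tested, 1 was higher in RED and 2 in GREEN. Against CTL, 14.2% of all genes were higher in RED and 29.5% in GREEN. The lymphocyte counts are thus near the share of all genes. Ly6g of neutrophils and Cd2, Cd79a and Nkg7 of lymphocytes were at 0 in CTL, and no stellate, endothelial or macrophage marker was. The part of these cells in the levels of Snai1, Twist1, Twist2, Zeb1 and Zeb2 was not tested.

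Cdh1 (ENSMUSG00000000303.12, chromosome 8, 106603351 to 106670246), the main cadherin of epithelial adherens junctions and the best known target of the factors above, was at 200.4, 80.1, 68.7, 137.3 and 222.0 CPM in CTL 1 to 5. In RED 1 to 5 it was at 95.6, 158.5, 61.8, 160.1 and 101.6 CPM. In GREEN 1 to 5 it was at 170.3, 130.1, 434.8, 497.4 and 371.0 CPM. RED lay within or close to the CTL range. GREEN split: GREEN 3, GREEN 4 and GREEN 5 were above every CTL and RED sample, while GREEN 1 and GREEN 2 lay within the CTL range. The log2 fold change was 1.48 in GREEN versus RED (SE 0.44, edgeR adjusted p = 0.042) and 1.19 in GREEN versus CTL (SE 0.44, adjusted p = 0.038). RED versus CTL gave -0.29 (95% interval -1.13 to 0.55, adjusted p = 0.73).

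Both Cdh1 calls rested on few samples. GREEN versus RED lost the threshold when any of CTL 1, CTL 4, CTL 5, RED 1, RED 3, RED 4, RED 5, GREEN 3, GREEN 4 or GREEN 5 was left out (1.23 to 1.54, adjusted p = 0.051 to 0.12). GREEN versus CTL lost it when CTL 1, CTL 2, CTL 3, CTL 4, RED 1, RED 4, GREEN 3, GREEN 4 or GREEN 5 was dropped (0.80 to 1.18, adjusted p = 0.052 to 0.15). By limma-voom GREEN versus RED was 1.37 and missed the threshold (adjusted p = 0.05). With GREEN 3, GREEN 4 and GREEN 5 all left out, Cdh1 gave 0.18 in GREEN versus RED and -0.18 in GREEN versus CTL, neither past the threshold. Within experiment 1, whose GREEN samples were GREEN 4 and GREEN 5, the log2 fold change was 2.06 against RED (adjusted p = 0.0032) and 1.84 against CTL (adjusted p = 0.0066). Within experiment 2 it was 0.95 (adjusted p = 0.78) and 0.55 (adjusted p = 0.54), where 0.458% of all genes passed in GREEN versus RED and 20.7% in GREEN versus CTL, against 33.9% and 50.3% within experiment 1.

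Cdh2 (ENSMUSG00000024304.14, chromosome 18, 16588877 to 16809246), the cadherin that rises in the classical EMT of other epithelia and that hepatocytes hold beside E-cadherin, was at 152.6, 160.6, 144.3, 117.9 and 140.1 CPM in CTL 1 to 5. In RED 1 to 5 it was at 111.9, 158.3, 125.0, 108.9 and 100.7 CPM. In GREEN 1 to 5 it was at 134.2, 111.6, 78.9, 55.2 and 58.0 CPM. The samples that were high for Cdh1, GREEN 3 to GREEN 5, were the 3 lowest for Cdh2 of all 15, while GREEN 1 and GREEN 2 lay within the RED range. GREEN versus CTL gave a log2 fold change of -0.76 (SE 0.18, edgeR adjusted p = 0.0035), a call that no single library removed (-0.92 to -0.66) and that was lost without GREEN 3 to GREEN 5 (-0.39, adjusted p = 0.11). GREEN versus RED gave -0.51 (95% interval -0.86 to -0.16), short of the threshold with an adjusted p of 0.071, and RED versus CTL -0.25 (-0.60 to 0.10, adjusted p = 0.42). Within experiment 1 GREEN versus CTL gave -1.08 (adjusted p = 0.0011) and GREEN versus RED -0.92 (adjusted p = 0.0027), and within experiment 2 -0.48 (adjusted p = 0.14) and -0.27 (adjusted p = 0.84). Scaled by library totals, GREEN versus CTL was -0.076 (adjusted p = 0.68), where the median of all genes was 0.832, so the lower Cdh2 is a difference relative to the bulk of genes.

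The ratio of Cdh1 to Cdh2 in CPM per kb within each library does not depend on the library scaling. It was 1.44, 0.545, 0.520, 1.27 and 1.73 in CTL 1 to 5 and 0.933, 1.09, 0.541, 1.61 and 1.10 in RED 1 to 5. In GREEN 1 to 5 it was 1.39, 1.28, 6.03, 9.86 and 6.99. All CTL and RED samples, GREEN 1 and GREEN 2 thus lay between 0.520 and 1.73, and GREEN 3, GREEN 4 and GREEN 5 stood apart from them.

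GREEN 3, GREEN 4 and GREEN 5, highest in the cadherin ratio, were also highest in markers of bile duct cells. GREEN 1 and GREEN 2 exceeded every CTL and RED sample in these markers, at ratios within the CTL and RED range. Summed over the 14 that could be matched, the bile duct markers were at 294.3, 431.5, 1434.0, 1837.6 and 1325.8 CPM in GREEN 1 to 5, against 41.7 to 83.7 CPM in CTL and 81.1 to 104.4 CPM in RED. Of these 14, 13 were higher in GREEN than in RED and 14 higher than in CTL, with 3 higher in RED than in CTL. The shares of all genes that were higher were 9.68%, 29.5% and 14.2%, so the 3 of 14 are near that share. Among the defining genes of bile duct cells, Cftr was at 0 in every CTL library. The 8 mesothelial markers, which share Krt19 with the bile duct list, summed to 0.676 to 2.99 CPM in CTL, 4.62 to 7.18 in RED and 23.3, 35.5, 117.1, 165.6 and 122.7 in GREEN 1 to 5, with Upk3b and Upk1b at 0 in CTL. Hepatocyte markers summed to 61148.2, 79777.1, 40403.2, 34525.6 and 38426.2 CPM in GREEN 1 to 5, lowest in the samples with the highest ratio, against 107694.7 to 173956.0 CPM in CTL and 75153.9 to 121127.7 CPM in RED. Of the 14 hepatocyte markers tested, 11 were lower in GREEN than in CTL and 0 passed in GREEN versus RED. Over all genes 18.6% were lower in GREEN than in CTL, and 12.9% passed in GREEN versus RED. The part of bile duct or mesothelial cells in the cadherin levels was not tested.

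**Figure D3:**
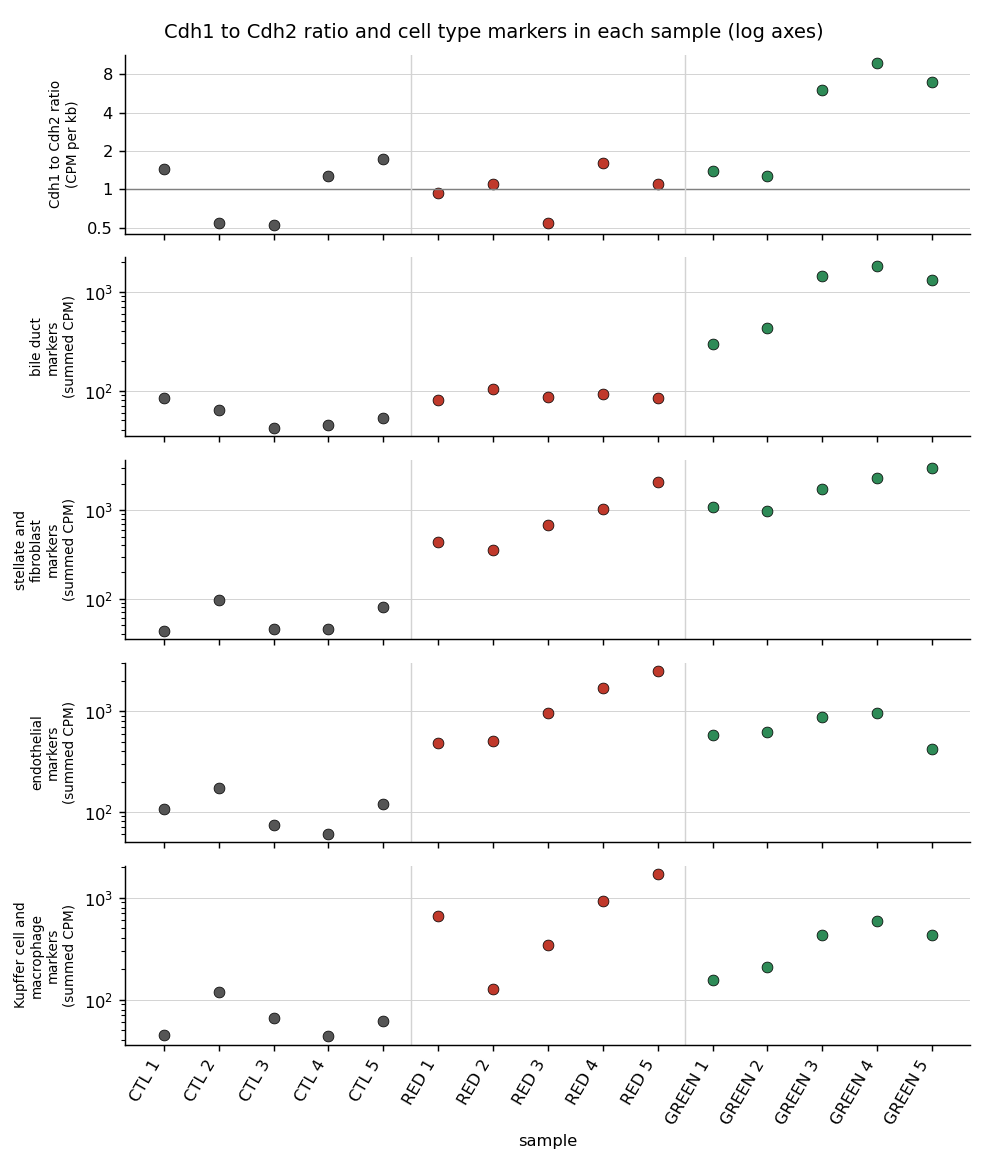
Ratio of Cdh1 to Cdh2 in CPM per kb (top, log2-spaced axis, line at 1) and summed CPM of 4 marker lists (log10 axes) in each of the 15 samples. GREEN 3 to GREEN 5 are highest in the ratio (6.03 to 9.86) and in the bile duct markers (1325.8 to 1837.6 CPM), and the endothelial and macrophage markers are highest in RED 5.

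Other factors linked to EMT were followed over a list of 20 genes, of which 14 could be tested. In RED versus CTL 7 were higher and 0 lower (median log2 fold change 1.35, against 0.0493 for all genes), in GREEN versus RED again 7 and 0 (0.68 against -0.021), and in GREEN versus CTL 10 and 0 (2.19 against 0.11). Of all genes 14.2%, 9.68% and 29.5% were higher in these comparisons, and 1.99%, 3.22% and 18.6% lower. Prrx1, Foxc1, Sox4 and Tcf21 were among the higher genes in each of the 3 comparisons. Of the 3 most abundant, Sox4, a factor of progenitor cells, averaged 0.631 ± 0.225 CPM in CTL, 11.3 ± 3.26 in RED and 109.4 ± 70.9 in GREEN (SD, n = 5), with GREEN versus RED at 3.18 (SE 0.44, edgeR adjusted p = 0.00062). The inhibitor of helix-loop-helix factors Id3 averaged 51.1 ± 27.6, 146.0 ± 51.1 and 145.2 ± 37.7 CPM and was higher in RED and in GREEN than in CTL (1.5 and 1.51). Its relative Id2 averaged 193.0 ± 48.4, 225.9 ± 123.6 and 280.5 ± 152.2 CPM and passed in none of the comparisons. Tcf21 is also one of the stellate cell markers.

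All 24 mesenchymal genes of the EMT programme could be tested. In RED versus CTL 16 were higher and 0 lower (median 3.49), in GREEN versus RED 6 and 0 (median 0.53), and in GREEN versus CTL 20 and 1 (median 4.54). The share of all genes that was higher was 14.2%, 9.68% and 29.5% in these comparisons, and the share lower 1.99%, 3.22% and 18.6%. All 16 that were higher in RED than in CTL were also higher in GREEN than in CTL. Among them were Vim, Acta2, Tagln, Sparc, Postn, Fbn1, Col5a1, Col5a2, Axl and Pdgfrb. The 6 that were higher in GREEN than in RED were Lox, Tnc, Mmp2, Itgav, Ncam1 and Spp1. Lox, Tnc, Mmp2 and Ncam1 are also among those 16, and Itgav and Spp1 are not. Sparc, a matrix-binding protein, averaged 6.93 ± 3.31 CPM in CTL, 173.4 ± 133.1 in RED and 254.8 ± 125.6 in GREEN. The 1 lower gene was Fn1, fibronectin, which hepatocytes secrete in quantity: it averaged 4578.4 ± 452.5, 3693.5 ± 1128.1 and 2499.5 ± 1291.3 CPM, with -0.96 in GREEN versus CTL (SE 0.32, adjusted p = 0.022). Spp1, osteopontin itself, ranged from 4.57 to 283.4 CPM in CTL, 38.4 to 380.3 in RED and 413.0 to 7419.6 in GREEN. The stellate cell and fibroblast markers given above moved with this list, and their part in it was not tested.

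The epithelial side of the programme was assessed with splicing regulators and transcription factors that oppose EMT, and 14 of the 18 could be tested. In RED versus CTL 3 were higher (Grhl1, Elf3 and Klf4) and 0 lower (median 0.39). In GREEN versus RED 5 were higher (Esrp1, Grhl2, Ovol2, Klf5 and Ehf) and 0 lower (median 0.74). In GREEN versus CTL 8 were higher and 2 lower (median 3.18), the lower ones being Esrp2 and Hnf4a. Over all genes the shares higher were 14.2%, 9.68% and 29.5% in these comparisons, and the shares lower 1.99%, 3.22% and 18.6%. The 3 higher of 14 in RED versus CTL are thus near the share of all genes, and the 2 lower in GREEN versus CTL do not exceed it. Hnf4a, the central transcription factor of hepatocytes, averaged 692.1 ± 83.8 CPM in CTL, 616.7 ± 157.3 in RED and 362.8 ± 152.2 in GREEN, with -1.0 in GREEN versus CTL (SE 0.29, adjusted p = 0.011). Esrp2, the epithelial splicing regulator of adult hepatocytes, averaged 101.8 ± 5.08, 79.2 ± 21.0 and 63.4 ± 19.7 CPM. Genes linked to EMT and genes that oppose it were thus both among those higher in GREEN than in RED. The bile duct markers (13 of 14) and mesothelial markers (6 of 8) were higher in the same comparison, and their part in these lists was not tested. Without GREEN 3, GREEN 4 and GREEN 5, which stood apart, 2 of 15 epithelial factors and 0 of 15 other EMT factors were higher in GREEN than in RED. In that fit 0.301% of all genes passed.

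Partners of the cadherins at the junction were followed over 20 genes of the cadherin-catenin complex, of which 19 could be tested. Of these 2 were higher in RED versus CTL (Nectin4 and Ptprm; median 0.0291), 7 in GREEN versus RED (median 0.52) and 11 in GREEN versus CTL, where 1, Nectin1, was lower (median 0.63). Over all genes 14.2%, 9.68% and 29.5% were higher in these comparisons, with medians of 0.0493, -0.021 and 0.11, so the 2 of 19 in RED versus CTL are near the share of all genes. The shares lower were 1.99%, 3.22% and 18.6%, and the 1 lower of 19 in GREEN versus CTL does not exceed its share. The most abundant were the catenins that link cadherin to actin or bind its tail. Ctnnb1 (beta-catenin) averaged 206.1 ± 20.9 CPM in CTL, 207.2 ± 22.7 in RED and 345.3 ± 132.1 in GREEN, with 0.71 in GREEN versus RED (SE 0.19, adjusted p = 0.031). Ctnna1 (alpha-catenin) averaged 124.2 ± 9.00, 126.1 ± 14.9 and 195.5 ± 69.2 CPM, with 0.61 (SE 0.18, adjusted p = 0.043). Ctnnd1 (p120-catenin) averaged 161.0 ± 10.2, 172.8 ± 14.4 and 251.4 ± 72.4 CPM, and its 0.52 in GREEN versus RED missed the threshold (adjusted p = 0.054), while GREEN versus CTL passed (0.63, adjusted p = 0.0072).

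Of the 28 genes of tight junctions, desmosomes and epithelial keratins, 1 was higher in RED than in CTL (Krt19, a bile duct marker; median -0.14). GREEN versus RED gave 12 higher and 1 lower (median 0.66), and GREEN versus CTL 14 higher and 2 lower (median 0.64). Among all genes 14.2%, 9.68% and 29.5% were higher in these comparisons, taken in the same order. The shares lower were 1.99%, 3.22% and 18.6%, and the medians 0.0493, -0.021 and 0.11. The 1 lower of 28 against RED is thus near the share of all genes. Neither the 1 higher in RED nor the 2 lower in GREEN against CTL exceed it. Epcam, Cldn4, Cldn7, Krt19 and St14 among the higher genes are also on the bile duct list. Cldn1, a claudin, was lower in GREEN than in both others. Dsg2, a desmosomal cadherin, averaged 176.3 ± 33.3 CPM in CTL, 131.3 ± 21.9 in RED and 321.4 ± 153.7 in GREEN, with 1.25 in GREEN versus RED (SE 0.28, adjusted p = 0.013). The keratins of hepatocytes and ducts, Krt8 and Krt18, averaged 279.3 ± 94.5 and 252.2 ± 82.9 CPM in CTL, and 573.2 ± 266.2 and 425.5 ± 166.3 CPM in GREEN. Of the pair Krt8 passed in GREEN versus CTL (1.01, adjusted p = 0.049) and Krt18 did not (0.74, adjusted p = 0.099).

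Beyond Cdh1 and Cdh2, 14 of 21 other cadherins could be tested. In RED versus CTL 8 were higher and 0 lower (median 2.02), in GREEN versus RED 4 and 0 (median 0.13), and in GREEN versus CTL 11 and 1 (median 2.88). Among all genes the shares higher were 14.2%, 9.68% and 29.5%, and the shares lower 1.99%, 3.22% and 18.6%. The 5 with the highest level per kb were Cdh5, Cdh6, Cdh3, Cdh13 and Cdh10. Cdh5, the cadherin of endothelial cells and one of the endothelial markers, averaged 4.68 ± 2.34 CPM in CTL, 74.1 ± 58.8 in RED and 40.1 ± 20.5 in GREEN, and Cdh13 averaged 0.288 ± 0.107, 4.43 ± 3.79 and 4.18 ± 1.73 CPM. Both were higher in RED and in GREEN than in CTL and neither passed in GREEN versus RED. Cdh6, known from kidney tubules and developing epithelia, averaged 0.234 ± 0.0693 CPM in CTL, 0.503 ± 0.153 in RED and 36.3 ± 24.4 in GREEN, with 6.05 in GREEN versus RED (SE 0.58, adjusted p = 7.6e-05). Cdh3, P-cadherin, averaged 0.259 ± 0.180, 1.18 ± 0.662 and 10.5 ± 5.93 CPM, with 3.13 in GREEN versus RED (SE 0.65, adjusted p = 0.0077). Cdh10 averaged 1.92 ± 0.344, 1.89 ± 0.812 and 0.724 ± 0.470 CPM and was the 1 lower cadherin in GREEN versus CTL (-1.44, adjusted p = 0.023).

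The counts for these lists moved with the GREEN samples in the fit. With GREEN 3, GREEN 4 and GREEN 5 left out, which leaves 2 samples in that group, the genes higher in GREEN than in RED numbered 0 of 15 other EMT factors, 1 of 24 mesenchymal genes, 2 of 15 epithelial splicing and transcription factors, 0 of 19 genes of the cadherin-catenin complex, 3 of 28 junction genes and 1 of 16 other cadherins, and 0 were lower in any. Over all 17280 genes that could then be tested 0.301% passed. Against CTL the remaining GREEN samples had 5 of 15 other EMT factors, 13 of 24 mesenchymal genes and 6 of 15 epithelial factors higher. The same held for 2 of 19 genes of the cadherin-catenin complex, 5 of 28 junction genes and 6 of 16 other cadherins, again with 0 lower. Of all 17280 genes 1705 were higher and 471 lower there (12.6% passed), so the 2 of 19 are near the share of all genes. In RED versus CTL that fit called 2 junction genes higher and 6 lower, and 4 epithelial factors higher and 1 lower. It called 2202 of all 17280 genes higher and 1034 lower (18.7% passed), so the 1 lower epithelial factor of 15 is near the share of all genes. Scaled by library totals, 0 genes of any list were lower in any comparison, and the lower calls of Fn1, Esrp2, Hnf4a, Nectin1, Cldn1, Lsr and Cdh10 were not made.

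**Figure D4:**
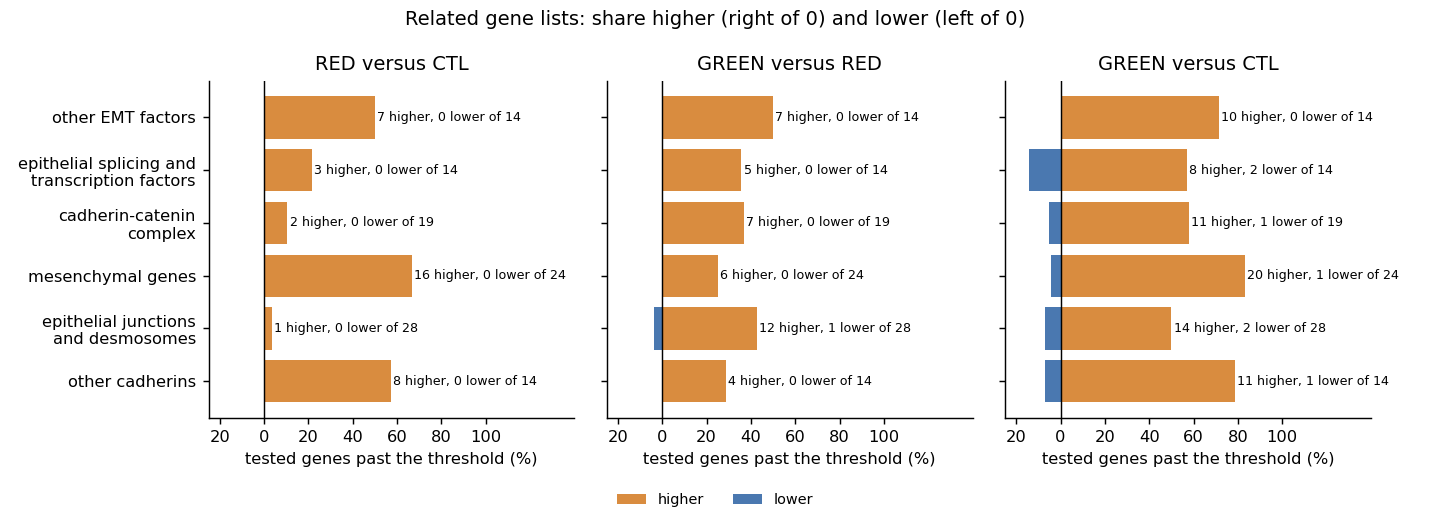
Share of the tested genes of 6 related lists that were higher (right of 0) or lower (left of 0) in each comparison at an edgeR adjusted p under 0.05, with the counts beside the bars. In RED versus CTL 16 of 24 mesenchymal genes and 1 of 28 junction genes passed, in GREEN versus RED 6 and 13, and in GREEN versus CTL 21 and 16. Of all genes 16.2%, 12.9% and 48.1% passed in these comparisons. Differences between lists were not tested.

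The genes whose levels were most like those of each member over the 15 libraries were taken by Pearson r of log2 CPM with the difference between experiments removed, among tested protein-coding genes. The points share the libraries, their scaling and the 3 groups, so r is given as a description. Zeb2 was most like Susd2 (0.994), Cd200r1 (0.994) and Pla2r1 (0.993), Snai1 like Lmod1 (0.986), Mapk7 (0.986) and Plod2 (0.982), and Twist1 like Gpx7 (0.976), Cdc42ep2 (0.974) and Tmcc2 (0.974). Twist2 was most like Myo10 (0.947), Tmem221 (0.943) and Sptbn1 (0.937). Cdh2 was most like Pex14 (0.988), Slco2b1 (0.986) and Wbp1l (0.983), and Cdh1 like Manba (0.965), Itih5 (0.955) and Lurap1l (0.940). The 2 genes with the smallest differences between groups had the lowest values: Zeb1 with Dhrs9 (0.897), Il18bp (0.867) and Qk (0.866), and Snai2 with March4 (0.906), Vmn1r20 (0.905) and Cndp1 (0.897). No gene appeared in the list of more than 1 member.

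CTL 5, RED 2, RED 3 and RED 4 had a library in each experiment and so show how far 2 libraries of 1 sample differed. The CPM here come from TMM scaling over all 19 libraries together, so they differ slightly from the values above, which were scaled over 15. Cdh1 read 160.8 CPM in experiment 1 and 215.9 in experiment 2 for CTL 5, 113.7 and 155.7 for RED 2, 52.3 and 60.6 for RED 3, and 139.2 and 158.5 for RED 4. Zeb2 read 2.53 and 4.31 CPM for CTL 5, 10.6 and 18.3 for RED 2, 26.3 and 30.3 for RED 3, and 29.9 and 46.6 for RED 4. Experiment 2 gave the higher level in all 4 samples for these 2 genes, as it did for Snai1, Snai2, Zeb1 and Cdh2, and the order of the 4 samples was the same in both experiments for Cdh1 and Zeb2. Twist1 was at 0 in CTL 5 in both and at 0.243 and 0.230 CPM in RED 2, 0.576 and 1.10 in RED 3, and 1.71 and 1.82 in RED 4. Among the 15 libraries compared, each population held 2 of experiment 1 and 3 of experiment 2, and the experiment was a term of every fit on both.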

How the data were processed

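The authors deposited estimated counts per gene, not normalized, for 10 libraries of experiment 1 and 9 of experiment 2, prepared, in the labels' protocols, from 150 ng of RNA each. The estimates came from kallisto 0.43.1 with the build GRCm38, per the submitters' processing notes. The sources used here do not give the annotation release, the summing of transcripts to genes, the strand setting or the RNA extraction. Of 35274 Ensembl identifiers, 34845 (98.8%) had a symbol and position in GENCODE vM21. Of the deposited values 40.8% were not whole and were rounded.

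Each sample entered with 1 library, that of experiment 2 for the 4 samples with both. Genes were filtered with filterByExpr and scaled by TMM, and group and experiment were fitted in edgeR 4.0.16 (R 4.3.3), with its quasi-likelihood F test, Benjamini-Hochberg adjustment over 16387 genes and a threshold of 0.05. The tests are 2-sided, and an adjusted p comes from this fit unless another tool is named. A 95% interval is the estimate ± 1.96 standard errors. Counting intervals are exact (Clopper-Pearson) and, like the limits for a count of 0, cover counting error only, since reads without molecular identifiers are not independent molecules. P-values measure the spread between samples, which no label ties to animals. Alternatives were RLE scaling, library totals, other filters, DESeq2 1.42.0, limma-voom (limma 3.58.1), each experiment alone with all its libraries, replicate blocks and leaving out each sample.

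The 8 genes and the lists were chosen with earlier results of these data known. Named were all 8 genes, the 3 genes of each list with the highest mean CPM, the 5 other cadherins with the highest CPM per kb and the 3 genes most alike to each member. Some genes that this rule or the marker lists would name are not reported here. Genes named only for having passed within a list were chosen after their values were seen. Tf and Anxa13 of the marker lists were not matched to 1 row. Standard deviations are over 5 samples, and CPM are comparable between genes only per kb.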

Additional observations from a re-analysis of the deposited data

Results flagged for a closer look

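Twist2 in CTL was singled out because 1 sample lay far from the other 4: CTL 5 had 0.0590 CPM and the other 4 CTL samples were at 0, so the gap to the nearest sample was the whole range (1.0, against a 95% critical value of 0.71 for 5 samples). The value rests on 2 counts, and the other library of the same sample, made in experiment 1, had a count of 0. With 4 samples at 0 any count in the fifth meets this criterion, so it says nothing more about CTL 5. Of the 24 groups examined, the 8 genes in 3 populations, no other met it; for continuous values chance alone marks about 1 group in 20.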

How the results depend on the processing

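The calls of Twist1 and Zeb2 in RED versus CTL and of Snai1 and Zeb2 in GREEN versus CTL passed the threshold under every alternative in which the gene could be fitted. Against the 5 higher members in RED versus CTL there were 3 without the low-count filter, 3 in experiment 2 alone, 2 in experiment 1 alone, 2 with only the groups compared in the fit, and 3 with GREEN 3, GREEN 4 and GREEN 5 left out, where 1 member (Cdh2) was lower. The shares of all genes that passed in these settings were 9.85%, 7.18%, 13.3%, 17.1% and 18.7%. Against the 1 higher and 1 lower member of GREEN versus RED, library totals gave 2 and 0, no filter left 0 lower, DESeq2, limma-voom, the experiment 1 library of samples with both and experiment 1 alone each gave 2 lower, and experiment 2 alone, only the groups compared and GREEN 3 to GREEN 5 left out gave 0 and 0, settings in which 0.458%, 8.02% and 0.301% of all genes passed. In the other settings named, 26.4% of all genes passed by library totals, 7.21% without the filter, 23.3% by DESeq2 and 14.8% by limma-voom. The share was 26.6% with the experiment 1 library of samples with both and 33.9% in experiment 1 alone. By library totals 4289 of 16387 genes were higher, so the 2 higher members of 8 are near the share of all genes. By limma-voom the 1 higher member was Snai1 (1.14, adjusted p = 0.038), and Cdh1 missed the threshold (1.37, adjusted p = 0.05). Against the 5 higher and 1 lower member of GREEN versus CTL, experiment 2 alone gave 3 and 0, only the groups compared gave 3 higher, GREEN 3 to GREEN 5 left out gave 2 and 0, and library totals left 0 lower. The shares of all genes that passed there were 20.7%, 49.2%, 12.6% and 64.3%. Leaving out 1 sample at a time gave 3 to 5 higher and 0 to 0 lower members in RED versus CTL, 0 to 1 and 0 to 2 in GREEN versus RED, and 4 to 5 and 1 to 1 in GREEN versus CTL. Over all genes 12.7% to 19.5%, 5.24% to 21.3% and 40.4% to 51% passed in these fits. Twist2 could not be fitted in experiment 2 alone, with the experiment 1 libraries or at a CPM of at least 1 in 5 libraries, Twist1 and Twist2 not with only RED and CTL in the fit, and Twist2 not with only GREEN and CTL, because they did not pass the filter there.

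The sign changed in these cases, in log2 fold changes, and the cause was not tested. Under library totals Cdh1 and Cdh2 gave 0.0038 and 0.028 in RED versus CTL, Snai2, Twist1 and Zeb2 gave 0.20, 0.090 and 0.33 in GREEN versus RED, and Zeb1 gave 0.71 in GREEN versus CTL. By limma-voom Twist1 and Zeb2 gave 0.076 and 0.072 in GREEN versus RED and Zeb1 gave 0.010 in GREEN versus CTL. Zeb2 in GREEN versus RED was 0.24 in experiment 1 alone, and Twist2 was -0.024 with only those groups in the fit. Zeb1 in GREEN versus CTL was 0.031 at a CPM of at least 1 in 5 libraries and 0.19 in experiment 2 alone. With GREEN 3 to GREEN 5 left out, Twist2 was -0.93 in GREEN versus RED, Zeb1 0.16 and Cdh1 -0.18 in GREEN versus CTL. Leaving out 1 sample moved Twist1 from -0.75 to 0.11, Twist2 from -0.40 to 1.03 and Zeb2 from -0.36 to 0.43 in GREEN versus RED, and Snai2 from -0.0001 to 0.35 and Zeb1 from -0.16 to 0.076 in GREEN versus CTL.

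The title numbers and the library codes were not taken to pair the samples: deviations of RED 5 and GREEN 5, which share a code, correlated at -0.22, and those of the other 4 RED and GREEN pairs of equal code at 0.40 to 0.78. With a replicate block by title number GREEN versus RED held 0 higher and 0 lower members (Cdh1 1.43, adjusted p = 0.062; Zeb1 -0.47, adjusted p = 0.086), Zeb1 in RED versus CTL was 0.47 (adjusted p = 0.093), and Zeb2 in GREEN versus RED (0.0022) and Zeb1 in GREEN versus CTL (0.0005) changed sign. Another fit left CTL out and blocked the experiment 2 samples by library code, while all experiment 1 samples shared 1 block whatever their code. In that fit Cdh1 passed (1.35, adjusted p = 0.031) and 0 members were lower (Zeb1 -0.51, adjusted p = 0.092). In GREEN versus RED 11% of all genes passed with the title block and 8.16% in this fit. With a replicate block over the 4 RED and GREEN pairs of equal code alone, added after the data were seen, there were 0 higher and 0 lower members (Cdh1 1.10, adjusted p = 0.088, and Twist2 -0.046). There 5.61% of all genes passed.

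Depth limits Twist1 and Twist2, with 6 and 2 counts over all CTL libraries. Between-gene levels rest on the longest coding transcript, and reads of genes on the opposite strand could not be separated where the counting ignored strand.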
